A study of Mus musculus with 4 samples.

Results

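The genes described here present antigen or signal to T cells and natural killer (NK) cells: the histocompatibility (H2) rows of the expression table, the molecules that load and regulate them, and a set of surface ligands and receptors. The rule takes every row whose symbol starts with H2- or equals 1 of 25 listed names. It uses no measured value, but it was set with earlier results of these data known. The rule found 48 of the 24689 rows, of which 27 start with H2- and 21 carry a listed name. Cd40, Cd86, Pdcd1lg2 and Tnfsf4 matched no row and were not analysed here. RNA was sequenced from HT-22, a mouse cell line made by immortalizing hippocampal cells, at passages 21 to 24. Of the 4 libraries, 2 came from cells with induced Pja2, whose titles read Pja2-pb, and 2 from controls, which the characteristics call uninduced and the titles call WT. Neither the means of induction nor whether both groups came from the same line or clone is stated. Pja2 encodes a ubiquitin ligase of the RING type.

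MHC class I molecules pair a polymorphic heavy chain with the light chain beta 2-microglobulin and display peptides from inside the cell to CD8 T cells. Peptides reach them through the TAP transporter, and tapasin and trimming proteases select those that are loaded. MHC class II molecules are made mainly by professional antigen presenting cells and display peptides from the endosomal route to CD4 T cells. A T cell also reads costimulatory and inhibitory ligands on the presenting cell, whereas NK cells weigh class I molecules against stress ligands. Neurons of the healthy brain are known for low class I and hardly any class II.

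Reads in genes numbered 30080376 and 35262653 in the induced cells and 25787452 and 31010351 in the controls. Pja2 had 54829.8 and 54244 normalized reads in the induced cells and 6167 and 5881 in the controls, so both induced libraries stood far above both controls. Of 12 leukocyte and antigen presenting cell markers with a row, 8 were under the filter on low values, and the summed level of the 12 was 56.2 and 59.3 CPM in the induced cells and 73.6 and 61.2 CPM in the controls (CPM, reads scaled to a common library total). Tmem119, a gene known from microglia, made up 48.3 and 50.3 CPM of this sum in the induced cells and 67.4 and 56.0 CPM in the controls. The other 11 markers summed to 7.95 and 8.99 CPM in the induced cells and 6.28 and 5.16 CPM in the controls. Limma called 0 of the 4 tested markers, with 2 at an unadjusted p under 0.05. Of these 4, Cd68, Lyz2 and Aif1 lay above the controls in both induced libraries and Tmem119 below. Of all tested genes 26.2% lay wholly higher and 25.1% wholly lower. In normalized reads, Cd68 had 116 and 122 in induced and 88.0 and 70.6 in control cells. Lyz2 had 48.9 and 44.5 against 32.7 and 16.9, and Aif1 had 73.9 and 91.8 against 46.5 and 67.4. The pan-leukocyte gene Ptprc had 0 reads in both induced libraries and 5 and 0 in the controls. Itgam, Csf1r, Adgre1 and Cx3cr1, also in this list, had at most 9 reads in any library. The neuronal list had 3 of 6 rows above the filter (Tubb3, Syn1 and Eno2), while the neurofilament gene Nefl and the neuroblast gene Dcx had at most 6 reads in any library. All 7 fibroblast and mesenchyme markers were above it, led by the collagen gene Col1a2 with 173608 and 170583 normalized reads in induced and 189826 and 171347 in control cells. Of these 7, the proteoglycan gene Dcn fell (adjusted p = 0.0259) and 6 did not pass, and limma called 0 of 3 tested astrocyte and oligodendrocyte markers, with 2 at an unadjusted p under 0.05. A part of the neuronal markers is thus absent or near 0 in a line labelled as hippocampal.

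A normalized read is the read count after the authors' scaling between libraries, and 1 CPM stood for 25.8 to 35.3 reads. A gene entered the limma test if its CPM averaged 1 or more across the libraries, and "rose" and "fell" are used for adjusted p under 0.05 over all 13276 tested genes. Log2 fold changes are induced minus control. Of the 48 members 30 were tested. Cd80 and Cd47 rose, Il2rg and H2-T23 fell, and 26 did not pass. In the same test 2.08% of all genes rose and 1.34% fell, which together is 3.42%. The median log2 fold change of the 30 was -0.05, beside 0.00 for all tested genes, and 21 of the 30 lay within 0.3 of 0. The groups did not overlap for 21 of the 30, of which 7 were higher and 14 lower in induced cells, and that held for 51.3% of all tested genes (26.2% higher and 25.1% lower). An unadjusted p under 0.05 was reached by 19.1% of all tested genes, which is the share to set beside each such count here, and 50.4% had a log2 fold change above 0. Whether a group's libraries stem from separate cultures is not stated in the labels, and p-values reflect only how these libraries vary, which may be technical.

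**Figure D1:**
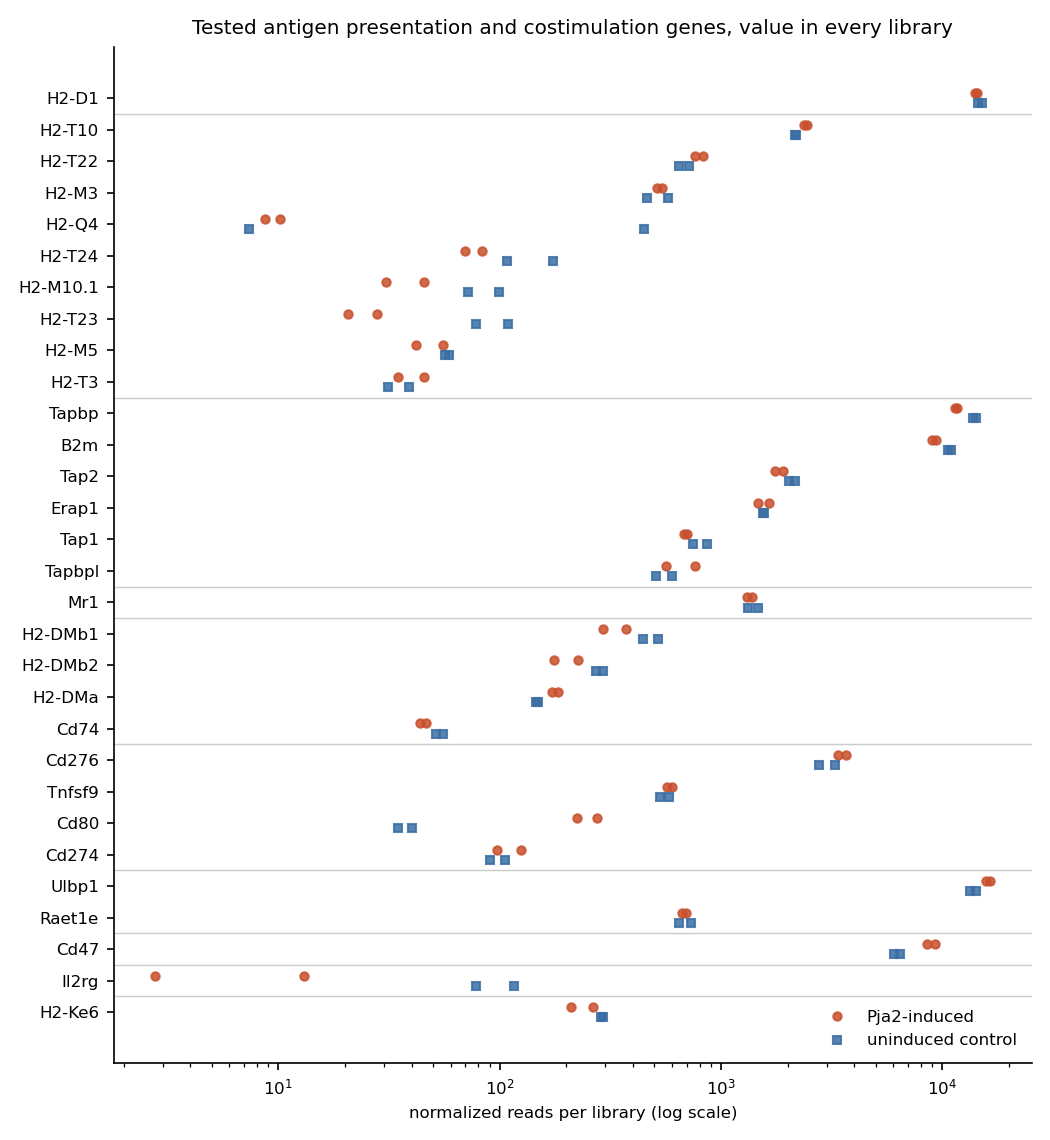
Normalized reads on a log scale for the 30 tested genes in every library, with Pja2-induced libraries as circles above the uninduced control libraries as squares, in blocks by role. Cd80 and Cd47 stand to the right in the induced libraries and H2-T23 and Il2rg to the left, while H2-Q4 has 1 control library far from the other 3 libraries.

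**Figure D2:**
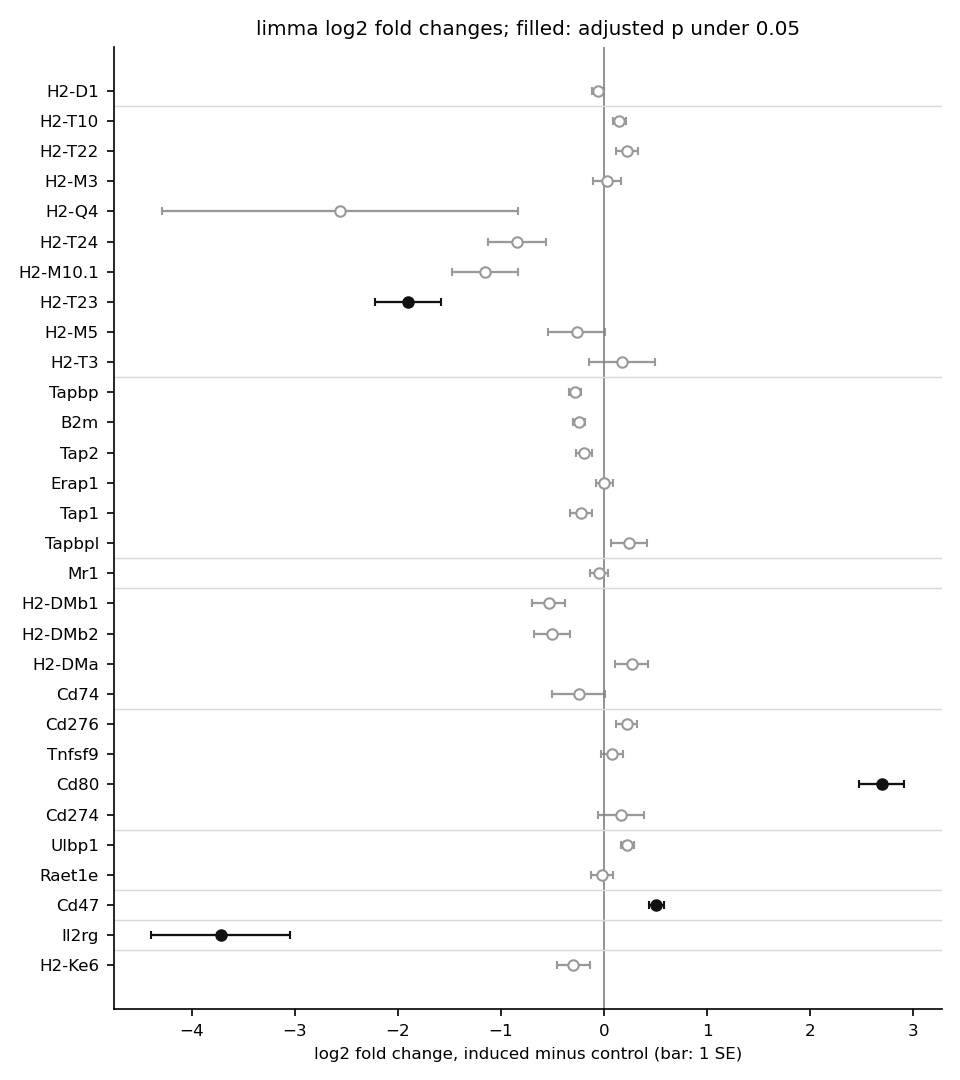
Limma log2 fold changes, induced minus control, with a bar of 1 SE, for the same genes in the same order. The filled points are the 4 genes past the threshold, Cd80, Cd47, H2-T23 and Il2rg, and the wide bar is H2-Q4.

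The classical class I heavy chain was represented by H2-D1, and it differed little between the groups. H2-D1 (ENSMUSG00000073411, chromosome 17) had 14281 and 13994 normalized reads in the induced cells, against 15043 and 14459 in the controls. The groups did not overlap, but the difference was small and did not pass (log2 fold change -0.06, SE 0.06, adjusted p = 0.615). H2-K1, the other classical heavy chain gene with a row, had 0 and 5 reads in the induced cells and 0 and 0 in the controls. A count of 0 allows up to 3 reads in a library, so at this depth H2-K1 was not detectable in 3 of the 4 libraries. In the mouse annotation used here (GENCODE M21) 9.63% of the 50-base words of H2-K1 transcripts, and 12.8% of those of H2-D1, also occur in another gene. Those shares describe the C57BL/6J genome. The haplotype of HT-22 cells, in a gene family that differs between strains, was not analysed here.

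Among the class I heavy chain rows of the Q, T and M regions, 9 of 18 were tested, 1 fell, 0 rose and 8 did not pass. Of all tested genes 1.34% fell and 2.08% rose. H2-T23 encodes Qa-1, a nonclassical molecule that shows leader peptides of other class I chains to an inhibitory receptor of NK cells. H2-T23 (ENSMUSG00000067212, chromosome 17) had 20.7 and 27.8 normalized reads in the induced cells, against 109 and 77.9 in the controls. It passed the filter only through the controls (0.632 and 0.851 CPM in induced and 3.37 and 2.39 CPM in control cells), so the group where it was high decided its entry into the test. Both induced libraries lay well below both controls, at a low level that rested on 49 reads in the induced and 161 in the control cells. The induced cells held 0.259 times the control mean (24.2 ± 5.06 against 93.7 ± 22.3, SD, n = 2 each), a log2 fold change of -1.90 (SE 0.32, adjusted p = 0.0400). The call ended when any library was left out (adjusted p = 0.0607 to 0.138, log2 fold change -2.14 to -1.66) and with no filter (adjusted p = 0.0879). Among the 20 tested neighbours of H2-T23 in gene order, which include H2-T24 and H2-M10.1, 0 rose and 0 fell, and their median log2 fold change was 0.03. In transcript words, 14.5% of those of H2-T23 occur in another gene, most often in H2-T-ps, so the counting of its reads is uncertain.

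Over all 20 class I heavy chain rows, tested or not, 9 lay wholly below the controls in normalized reads of the induced cells, 2 wholly above and 9 overlapped. Of the 10 tested rows 5 lay wholly below and 2 wholly above, beside 25.1% lower and 26.2% higher of all tested genes. The share over genes under the filter was not computed. Apart from H2-T23, the 4 given next were picked from the 9 after their values were seen. The rest of the 9 were H2-D1, H2-M5, H2-Q7 and H2-Bl. H2-T24 had 69.6 and 83.5 normalized reads in induced and 108 and 175 in control cells (adjusted p = 0.198). H2-M10.1, of a subfamily known from mouse vomeronasal neurons, had 45.7 and 30.6 in induced and 99.3 and 71.6 in control cells (adjusted p = 0.141). The pseudogene H2-T-ps, just under the filter, had 7 reads in each induced library and 60 and 36 in the controls. H2-M10.3 had 0 reads in both induced libraries and 11 and 6 in the controls. None of the 4 passed, H2-T-ps and H2-M10.3 in the fit with no filter (adjusted p = 0.0909 and 0.125).

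The better expressed nonclassical genes, H2-T10, H2-T22 and H2-M3, lay on the other side of 0 or at it. H2-T10 and H2-T22, whose products are ligands of gamma delta T cells in mice, had the most reads of them. H2-T10 had 2376 and 2434 normalized reads in induced and 2153 and 2181 in control cells (log2 fold change 0.15, adjusted p = 0.296). H2-T22 had 764 and 828 in induced and 645 and 718 in control cells (log2 fold change 0.22, adjusted p = 0.319). Both sat slightly above the controls in every induced library without passing. Of their words, 50.4% for H2-T10 and 53.5% for H2-T22 occur in another gene, and they share 31.7% and 31.2% with each other. How their reads were split between them and other genes is thus uncertain. The annotation types H2-T10 as a polymorphic pseudogene, and 27.1% of its exonic bases overlap the antisense BC023719. H2-M3, which presents formylated peptides, had 542 and 512 in induced and 575 and 464 in control cells, with overlapping groups (log2 fold change 0.03, adjusted p = 0.932). H2-M5 had 55.5 and 41.7 in induced and 59.1 and 56.9 in control cells (adjusted p = 0.650). H2-T3, the gene of the thymus leukemia antigen, had 34.8 and 45.4 in induced and 31.4 and 39.0 in control cells (adjusted p = 0.807). H2-M5 lay below the controls in both induced libraries, H2-T3 overlapped between groups, and neither passed. H2-Q7 lay under the filter with 14 and 20 reads in induced and 17 and 21 in control cells, and H2-Bl, H2-M6-ps, H2-Q10 and H2-Q5 had at most 8 reads in any library.

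H2-Q4 was decided by a single library. It had 8.70 and 10.2 normalized reads in the induced cells and 449 and 7.37 in the controls, so control replicate 1 stood apart from the other 3 libraries. H2-Q1 had 0 reads in the induced cells and 39 and 0 in the controls, again with control replicate 1 alone, and H2-M10.2 had 5 and 8 against 20 and 0. The log2 fold change of H2-Q4 was -2.56 (SE 1.73, adjusted p = 0.477), 0.32 without control replicate 1 and -5.43 without control replicate 2 (adjusted p = 0.00955), so no direction can be given for it. It passed the filter only through control replicate 1, the other 3 libraries holding 0.226 to 0.312 CPM. The share of H2-Q4 words that occur in another gene is 36.4%.

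Summed over the 20 class I heavy chain rows, so that reads shared between copies stay inside the sum, the induced libraries held 18237 and 18052 normalized reads and the controls 19467 and 18327. H2-D1 made up 77.3% to 78.9% of that sum in the 4 libraries. The 16 rows other than H2-D1, H2-T10, H2-T22 and H2-M3, a grouping chosen after the values were seen, summed to 274 and 285 in the induced cells and 1051 and 504 in the controls. Without H2-Q4 that sum was 265 and 275 in the induced cells, against 602 and 497 in the controls. The low rows were thus lower as a sum in both induced libraries, while the class I total was nearly level, a description with no test. That sum holds H2-T23, H2-T24, H2-M10.1, H2-T-ps and H2-M10.3, already given above as lower, so it is not a separate result. Not every row in it was lower: H2-T3, H2-M6-ps, H2-Q10 and H2-K1 had higher means in induced cells.

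**Figure D3:**
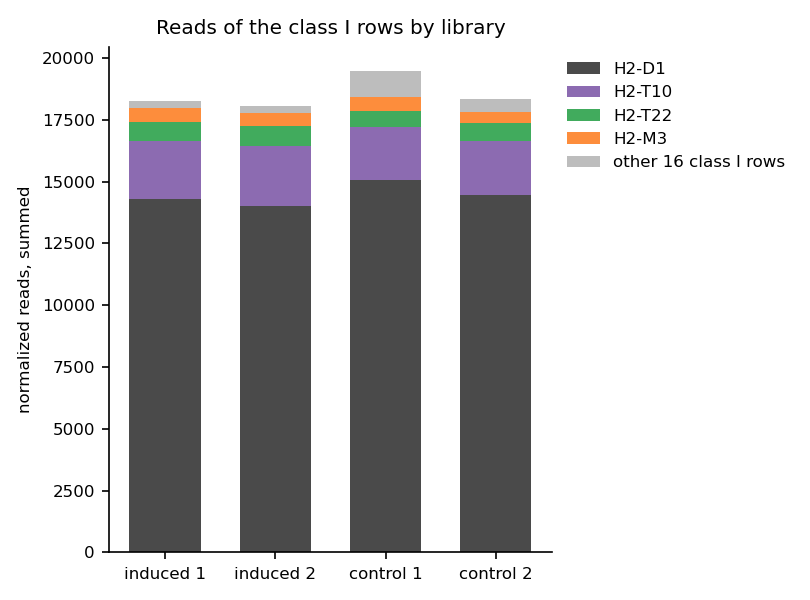
Summed normalized reads of the class I heavy chain rows in each library, induced libraries left of the controls, stacked by gene. H2-D1 makes up most of each bar, and the grey top holding the 16 minor rows is 274 and 285 normalized reads in the induced cells and 1051 and 504 in the controls.

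Of the light chain and the loading machinery, limma called 0 of 6 members, with 2 at an unadjusted p under 0.05 beside 19.1% of all genes. In 4 of the 6 both induced libraries lay below both controls, beside 25.1% of all tested genes, and the other 2 overlapped between groups. B2m, the light chain of all class I molecules, had 9320.1 and 8944 normalized reads in the induced cells, against 10631 and 10979 in the controls. Tapbp, the tapasin gene, had 11634 and 11350.4 in induced and 14172 and 13814 in control cells. Both were lower in both induced libraries, by 0.24 and 0.28 on the log2 scale, and neither passed (SE 0.06 each, adjusted p = 0.104 and 0.0636). Of the transporter genes, Tap1 had 701 and 679.8 normalized reads in induced and 863 and 749.8 in control cells (log2 fold change -0.22, adjusted p = 0.335). Tap2 had 1911 and 1749 in induced and 2157 and 2027 in control cells (-0.19, adjusted p = 0.277). The groups were apart for both. Tapbpl, a tapasin relative that edits peptides, and Erap1, the peptide-trimming protease of the endoplasmic reticulum, overlapped between groups (log2 fold change 0.24, adjusted p = 0.503 for Tapbpl, and 0.01, adjusted p = 0.978 for Erap1). Tapbpl had 563 and 761 in induced and 511 and 600.3 in control cells, and Erap1 had 1470.2 and 1652 in induced and 1556 and 1549 in control cells. Exons of Tapbp overlap Zbtb22 and the antisense Gm19412, those of Tap1 overlap Psmb9, those of Tap2 overlap Gm15821, and those of Erap1 overlap Cast. The kit does not mark the strand, so such reads cannot be told apart from the partners' reads.

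Per exonic length, which is the scale on which genes can be compared, B2m was the highest of all members, at a level of 325 CPM per kilobase in induced and 386 in control cells. H2-D1 followed at 168 in induced and 176 in control cells, and Tapbp at 96.9 and 119. The transactivator genes among the members were close to 0 reads, which does not cover the other transcription factors of MHC genes given below. Nlrc5, the class I transactivator, had 2 and 4 reads in the induced cells and 0 and 5 in the controls, and Ciita, that of class II, had 5 and 4 against 0 and 7. At such counts no difference was detectable.

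The promoter windows of the abundant class I pair are shown because they hold matches to letters of motifs that class I genes are known for. They are the 250 bases before the gene start in RefSeq on GRCm38.p6, not the build mm9 that the submitters name, at chr17:35262844-35263093 on the plus strand and chr2:122147437-122147686 on the plus strand, given 5′ to 3′. Capitals mark matches, on either strand, to an NF-kB like motif (GGG and CCC with 4 bases between) or to one like the interferon response element (GAAA, any 2 bases, GAAA).
H2-D1: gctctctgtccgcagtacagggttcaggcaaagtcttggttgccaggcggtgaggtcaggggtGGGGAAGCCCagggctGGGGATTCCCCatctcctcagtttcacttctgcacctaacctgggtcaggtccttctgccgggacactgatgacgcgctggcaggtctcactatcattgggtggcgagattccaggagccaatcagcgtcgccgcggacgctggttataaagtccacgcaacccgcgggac
B2m: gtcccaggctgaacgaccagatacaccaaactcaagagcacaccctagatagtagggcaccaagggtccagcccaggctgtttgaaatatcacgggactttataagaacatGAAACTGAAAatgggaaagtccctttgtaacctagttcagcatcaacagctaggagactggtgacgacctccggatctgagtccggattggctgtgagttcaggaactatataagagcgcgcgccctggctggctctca
H2-D1 holds NF-kB like matches 187 to 161 bases before the start, 2 of which overlap each other, and B2m holds an interferon response like match 139 to 130 bases before it. The 34 members with a window had 38 windows. Of these windows 8, from 7 genes, held the NF-kB like motif and 3 the interferon response like motif. The shares of 32851 RefSeq windows of the same length were 10.3% and 2.98%. The members with the interferon response like motif were B2m, H2-T22 and H2-T23. A STAT like motif (TTCNNNGAA) was found in 2 of the 38, those of H2-DMb2 and H2-M3, and in 7.02% of all windows. The CRE (TGACGTCA) was found in 0 of the 38 and 1.55% of all windows. A match says only that the letters are there, and the lack of a match does not show that an element in other letters is absent.

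The window of H2-T23, at chr17:36032702-36032951 on the minus strand, is given because this was the class I row that fell.
H2-T23: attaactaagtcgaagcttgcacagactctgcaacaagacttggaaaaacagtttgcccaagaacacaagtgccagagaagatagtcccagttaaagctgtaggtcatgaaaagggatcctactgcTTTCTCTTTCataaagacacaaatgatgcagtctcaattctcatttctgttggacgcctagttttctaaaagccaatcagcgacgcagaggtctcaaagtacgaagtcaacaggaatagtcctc
Its capitals mark the interferon response like match, 124 to 115 bases before the start.

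In the class II route 4 of 7 members were tested, and limma called 0, with 2 at an unadjusted p under 0.05 beside 19.1% of all genes. The genes of the peptide receptors themselves were at the floor: H2-Ab1 had 0 reads in induced and 0 and 2 in control cells, and H2-Eb1 had 2 and 0 against 0 and 0. Genes of the H2-DM exchange factor, which removes the invariant chain peptide from class II, were above it. H2-DMb1 had 371 and 293 normalized reads in induced and 443 and 517 in control cells (log2 fold change -0.54, SE 0.16, adjusted p = 0.163). H2-DMb2 had 175 and 226 in induced and 294 and 272 in control cells (-0.50, SE 0.18, adjusted p = 0.208). Both lay below the controls in every induced library and did not pass, and the pair shares 21.2% to 22.7% of words. H2-DMa, the other chain, had 172 and 183 in induced and 148 and 145 in control cells (adjusted p = 0.414), and its exons overlap those of Brd2, which had 8347 and 8072 normalized reads in induced and 6768 and 7645 in control cells. Cd74, the invariant chain gene, had 43.5 and 46.4 in induced and 55.3 and 51.6 in control cells (adjusted p = 0.653). H2-Oa, which restrains H2-DM, had at most 5 reads.

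Mr1, which presents vitamin B metabolites to mucosal T cells, had 1386 and 1304 normalized reads in induced and 1467 and 1317 in control cells, with overlapping groups (adjusted p = 0.816). Cd1d1, which presents lipids to natural killer T cells, had 12 and 48 reads in induced and 22 and 11 in control cells. H2-Ke6, a hydroxysteroid dehydrogenase gene that carries the H2 prefix only for its place, had 209.9 and 265 normalized reads in induced and 288 and 292 in control cells (adjusted p = 0.385), and 86.4% of its exonic bases overlap another gene.

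**Figure D4:**
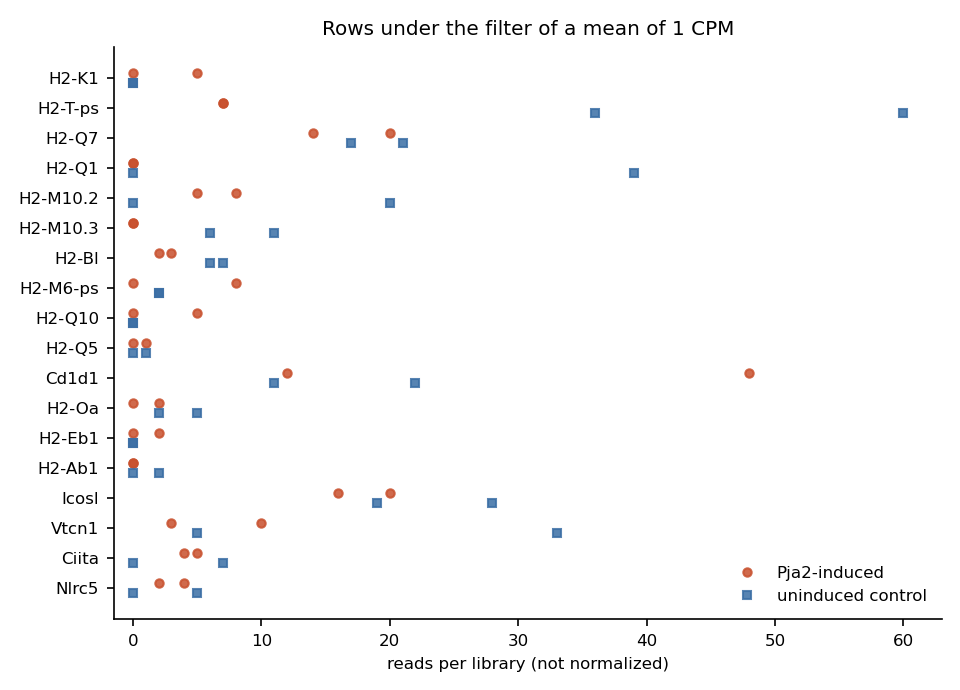
Reads per library, not normalized, for the 18 members with a mean under 1 CPM, with Pja2-induced libraries as circles above the control libraries as squares. H2-T-ps stands lower in both induced libraries (7 and 7 reads, against 60 and 36), the reads of H2-Q1 lie in 1 control library, and 10 of the 18 rows have at most 10 reads in every library.

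Cd80 had the highest fitted log2 fold change of the tested members. It encodes B7-1, a ligand by which presenting cells costimulate T cells through CD28 and restrain them through CTLA-4. Cd80 (ENSMUSG00000075122, chromosome 16) had 275 and 224 normalized reads in the induced cells, against 40.2 and 34.8 in the controls, from 494 and 65 reads. Both induced libraries lay far above both controls. The rise was 6.65-fold (249 ± 36.5 against 37.5 ± 3.88, SD, n = 2 each), a log2 fold change of 2.70 (SE 0.22, adjusted p = 0.00698). In bulk RNA, fewer cells of a type and less RNA per cell cannot be told apart, for this and every other gene here. No other gene of the annotation shares its transcript words or overlaps its exons. The call held in every alternative in which the gene was tested (log2 fold change 2.49 to 2.85, adjusted p up to 0.0194).

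The neighbourhood of Cd80 moved as well. Of 403 tested genes of chromosome 16, 21.1% rose and the median of their log2 fold changes was 0.31, against 1.49% and a median of -0.00 on the other chromosomes. Of the 10 tested genes on each side of Cd80, 13 of 20 rose and 0 fell, with a median of 0.54. Cd80 had the highest value of these 21 genes, 2.16 above its neighbours' median on the log2 scale. The part of the chromosome in the rise of Cd80 was not tested.

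Cd47 also lies on chromosome 16. It encodes an integrin-associated surface protein that binds SIRP alpha on phagocytes and holds back engulfment, and that also binds thrombospondin. Cd47 (ENSMUSG00000055447) had 9239.6 and 8507 normalized reads in the induced cells, against 6411 and 6061 in the controls. Both induced libraries were above both controls, at a level per length of 43.2 CPM per kilobase in induced and 30.5 in control cells. The rise was 1.42-fold (8873 ± 518 against 6236 ± 247, SD, n = 2 each), a log2 fold change of 0.51 (SE 0.07, adjusted p = 0.0260). The call ended without control replicate 2 (adjusted p = 0.0647), without induced replicate 1 (0.0836) and with no filter (0.0606), while log2 fold changes stayed between 0.45 and 0.57. Of the 20 tested neighbours of Cd47, 9 rose and 0 fell, and their median log2 fold change was 0.65. Cd47 thus moved by 0.14 less than its neighbours' median and ranked 17 of these 21 genes from the highest, and the part of the chromosome in its rise was not tested. Of the 28 tested members on other chromosomes, 0 rose and 2 fell (H2-T23 and Il2rg). Of all tested genes on those chromosomes 1.49% rose, and of all tested genes 1.34% fell.

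**Figure D5:**
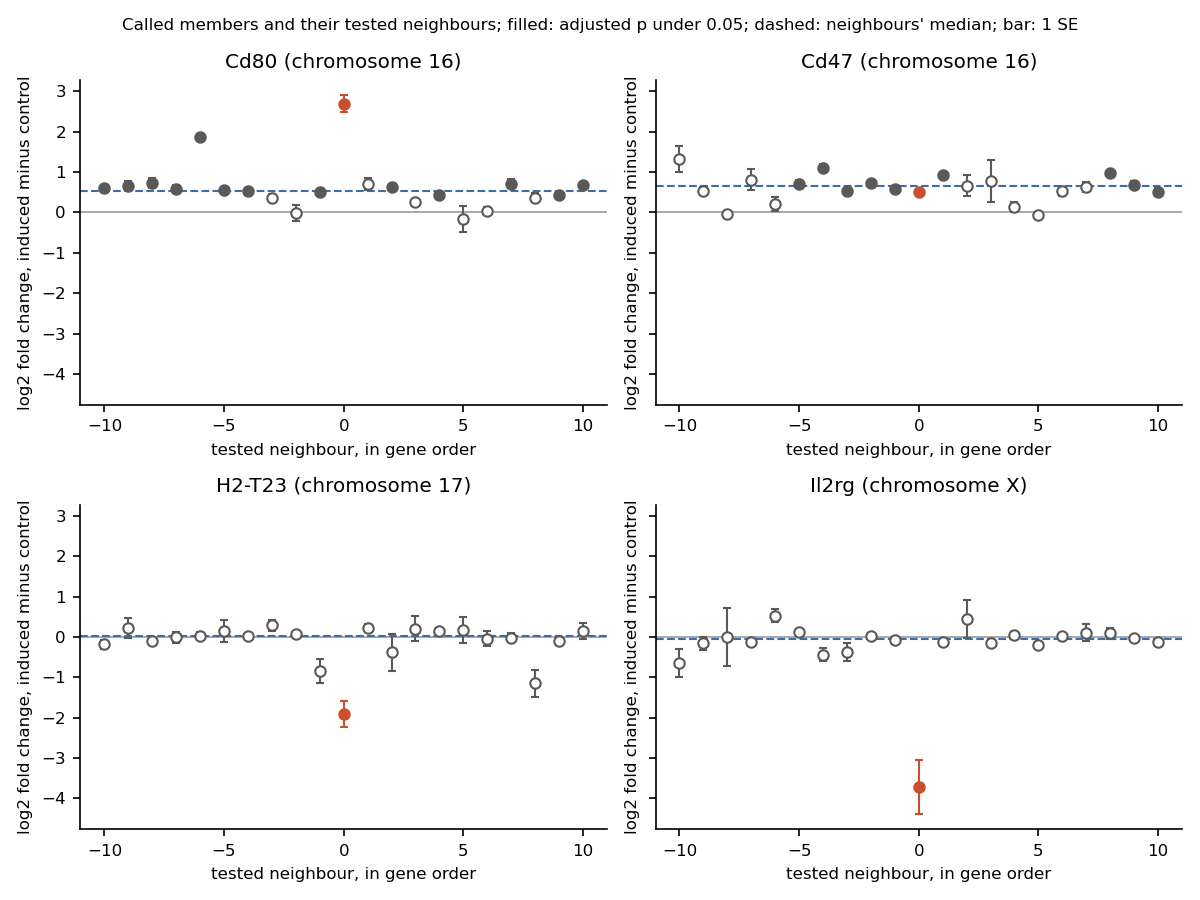
Log2 fold changes, induced minus control, with a bar of 1 SE, of the 4 called members (coloured, at position 0) and the 10 tested genes on each side in gene order, filled where adjusted p was under 0.05. The neighbours of Cd80 and Cd47 have medians (dashed) of 0.54 and 0.65, while those of H2-T23 and Il2rg have medians of 0.03 and -0.05 and 0 called genes.

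The start regions of these 2 genes lie at chr16:38458683-38458932 and chr16:49855404-49855653, both on the plus strand of GRCm38.p6, and are printed from RefSeq because they are the members that rose.
Cd80: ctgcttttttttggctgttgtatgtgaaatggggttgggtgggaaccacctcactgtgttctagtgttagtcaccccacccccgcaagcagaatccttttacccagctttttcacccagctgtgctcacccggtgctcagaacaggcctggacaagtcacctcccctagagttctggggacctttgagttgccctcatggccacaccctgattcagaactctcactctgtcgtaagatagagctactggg
Cd47: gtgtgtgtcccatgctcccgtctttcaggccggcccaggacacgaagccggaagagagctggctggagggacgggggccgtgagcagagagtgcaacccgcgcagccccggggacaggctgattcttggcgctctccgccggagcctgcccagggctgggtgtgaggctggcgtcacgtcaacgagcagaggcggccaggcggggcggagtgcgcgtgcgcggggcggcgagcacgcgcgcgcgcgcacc
Neither window holds a match to any of the 4 motifs, so there are no capitals.

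The other costimulatory and inhibitory ligands did not pass. Cd276, the B7-H3 gene and the one with the most reads, had 3386 and 3668 normalized reads in induced and 2782 and 3287 in control cells (log2 fold change 0.22, adjusted p = 0.304), with groups apart. Cd274, which encodes PD-L1, had 96.8 and 125 in induced and 106 and 90.6 in control cells (adjusted p = 0.730). Tnfsf9, the 4-1BB ligand gene, had 602 and 570.4 in induced and 529 and 584 in control cells (adjusted p = 0.751). For Cd274 and Tnfsf9 the groups overlapped. Exons of Tnfsf9 overlap Gm11110, which had 384 and 399 normalized reads in induced and 479 and 472 in control cells. Those of Cd276 overlap Gm10657, which had 10.9 and 5.56 in induced and 17.6 and 20.0 in control cells. Without a strand mark such reads cannot be told apart. Icosl, the ligand of ICOS, had 20 and 16 reads in induced and 19 and 28 in control cells, and Vtcn1, which encodes B7-H4, had 3 and 10 against 5 and 33. Cd80 was thus the 1 of 4 tested ligands of this kind that rose, and whether its change differed from that of the others was not tested.

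Ulbp1 and Raet1e encode ligands of NKG2D, the receptor by which NK cells and some T cells sense stressed cells. Ulbp1 had a level per length of 73.1 CPM per kilobase in induced and 62.8 in control cells, from 15702 and 16452 normalized reads in induced and 14123 and 13358 in control cells. It lay above the controls in both induced libraries by a log2 fold change of 0.23 (SE 0.06), short of the threshold (adjusted p = 0.139). Raet1e had 692 and 666 in induced and 729 and 645 in control cells, with overlapping groups (adjusted p = 0.953), and 40.3% of its words occur in its relative Raet1d.

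Il2rg had the lowest fitted log2 fold change of the tested members, while by the ratio of group means H2-Q4 was lower, at 0.0414. It encodes the common gamma chain, a subunit shared by receptors of several interleukins that are known mainly from lymphocytes. Il2rg (ENSMUSG00000031304, chromosome X) had 13.0 and 2.78 normalized reads in the induced cells, against 78.0 and 116 in the controls, from 15 and 172 reads. It passed the filter only through the controls (0.399 and 0.0851 CPM in induced and 2.40 and 3.55 CPM in control cells), as H2-T23 did. Both induced libraries were far below both controls, and the level was low in both groups. The induced cells held 0.0817 times the control mean (7.92 ± 7.26 against 96.9 ± 26.8, SD, n = 2 each), a log2 fold change of -3.72 (SE 0.67, adjusted p = 0.0491). The call ended without control replicate 1 (adjusted p = 0.113), without control replicate 2 (0.138) and with no filter (0.106), while log2 fold changes lay between -4.67 and -2.77. Of its words, 27.5% occur in Gm20489, which overlaps it and has no row. Among the 20 tested neighbours of Il2rg, 0 rose and 0 fell. The level of lymphocyte markers beside it was low, with Ptprc as above. The B cell gene Cd79a had 5 and 3 reads in induced and 6 and 11 in control cells, and the T cell gene Cd4 had 8 and 11 reads in induced and 3 and 0 in control cells. The part of such cells in the fall was not tested.

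The window before the start of Il2rg, at chrX:101268256-101268505 on the minus strand of GRCm38.p6, is shown as that of the other member that fell.
Il2rg: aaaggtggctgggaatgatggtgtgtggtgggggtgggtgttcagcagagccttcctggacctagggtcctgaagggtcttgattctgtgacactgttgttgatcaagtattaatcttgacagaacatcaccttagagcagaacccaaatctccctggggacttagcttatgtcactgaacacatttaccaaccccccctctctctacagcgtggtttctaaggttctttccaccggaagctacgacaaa
It holds no match to the 4 motifs.

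In the wider pathway, 64 genes of 8 lists were tested, each counted once, and 1 fell, 0 rose and 63 did not pass. Of all tested genes 1.34% fell and 2.08% rose. The listed gene that fell was Tnfrsf9, which encodes 4-1BB, the receptor of the product of Tnfsf9. Tnfrsf9 had 1109 and 1117 normalized reads in the induced cells, against 1596 and 1519.7 in the controls, a log2 fold change of -0.48 (SE 0.08, adjusted p = 0.0359). The alternatives were followed for members only, so how far this call depends on the processing was not tested. For Tnfrsf9 both induced libraries were below both controls, while the groups were not apart for Tnfsf9, whose exons overlap those of Gm11110. The receptor list it stands in had 4 tested genes, of which 3 did not pass, and a median of -0.22. Partners of Cd47 were measured too. Sirpa, its receptor gene, had 2359 and 2316 in induced and 2716 and 2880.3 in control cells (log2 fold change -0.26, adjusted p = 0.126), and the thrombospondin gene Thbs1 had 4357 and 5046 in induced and 3047 and 1990.4 in control cells (0.93, adjusted p = 0.0753). Cd28, the receptor gene of the Cd80 product, was under the filter.

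Of 14 tested genes of peptide supply and loading, limma called 0, with 8 at an unadjusted p under 0.05 beside 19.1% of all genes, and a median log2 fold change of 0.03. The lectin chaperones Canx and Calr had the most reads. Canx was lower in both induced libraries (log2 fold change -0.29, adjusted p = 0.0543) and Calr higher (0.18, adjusted p = 0.220), and neither passed. Psmb9, an immunoproteasome subunit gene whose exons overlap Tap1, was picked out after its values were seen. It had 122 and 131 normalized reads in induced and 285 and 201 in control cells, groups that did not overlap, and it did not pass (log2 fold change -0.92, adjusted p = 0.0909). The endosomal proteases Ctsl and Ctsd led a list of 6 tested genes of the class II and endosomal route, with 0 called, 1 at an unadjusted p under 0.05, a median of 0.05, and log2 fold changes of 0.08 and 0.17.

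Transcription factors of MHC genes had 0 of 12 called and 3 at an unadjusted p under 0.05 beside 19.1% of all genes, with 10 above 0 beside 50.4% and a median of 0.16. Nfkb1, an NF-kB subunit gene, had 6583 and 7484 normalized reads in induced and 5634 and 5742 in control cells (log2 fold change 0.30, adjusted p = 0.120), and Nfya, of the factor that binds the Y box, overlapped between groups (adjusted p = 0.532). Interferon gamma signalling genes had 0 of 11 called, 3 at an unadjusted p under 0.05 and a median of 0.04, with the most reads in Jak1 and Ptpn11 (log2 fold changes 0.04 and 0.09). Irf1, an interferon-induced activator of class I genes that both lists hold, was also singled out after its values were seen. Irf1 had 2368 and 2335 in induced and 1755 and 1293 in control cells (log2 fold change 0.64, adjusted p = 0.0878), above the controls in both induced libraries without passing.

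Partners of the common gamma chain had 0 of 8 called, 2 at an unadjusted p under 0.05 and a median of 0.03. Jak1 and Stat6 had the most reads of them (adjusted p = 0.767 and 0.739), and Il2rb, Il9r and Il21r were under the filter, whereas Il4ra, a partner chain in the interleukin 4 receptor, had 922 and 926 normalized reads in induced and 924 and 955 in control cells (adjusted p = 0.900). Other ligands of T cells and NK cells had 0 of 6 called, 2 at an unadjusted p under 0.05 and a median of -0.06, led by Vcam1 (log2 fold change -0.26, adjusted p = 0.182) and Lgals9 (-0.01, adjusted p = 0.928). Genes of ligand traffic and turnover had 0 of 6 called, 2 at an unadjusted p under 0.05 and a median of -0.11, led by Cmtm4 (-0.18, adjusted p = 0.194) and Stub1 (-0.09, adjusted p = 0.484).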

How the data were processed

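RNA of HT-22 cells was sequenced in 4 libraries, 2 with induced Pja2 and 2 controls. Per the labels' protocols, Trizol was used to take RNA and a TruSeq kit to prepare it. Per the submitters' processing notes, HISAT, Cufflinks and the build mm9 were used, and how reads were counted and scaled is not given in the sources used here. Log2 values were deposited, and 2 to the power of each, minus 1, was a whole multiple of 1 step per library for 100% of values (tolerance 0.01, largest distance 0.000850). They are thus log2(normalized read count + 1), and whole reads were recovered from them.

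The deposited log2 values of genes averaging 1 CPM or more went into limma 3.58.1 (R 4.3.3), with a variance trend, no covariate, two-sided p-values and Benjamini-Hochberg adjustment over 13276 genes (threshold 0.05). The pseudocount of 1 understates the change of genes with few reads. The fit was tested on simulated data in which every gene had the same dispersion between libraries. That run does not show that the calls in these libraries hold. Alternatives were 2 other filters, a pseudocount of 8, scaling by library totals, limma voom on recovered reads, a replicate block and leaving out each library.

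Annotation came from GENCODE M21 on GRCm38, for exonic length, overlap and gene order, and all 48 members matched. Transcripts were compared in 50-base words on both strands. Tested members are all named with values, and in each wider list up to 3 called genes by size and the 2 others of highest level. The members and lists were chosen with earlier results of these data known. The limit of 3 reads for a count of 0 covers counting error only.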

Additional observations from a re-analysis of the deposited data

How the results depend on the processing

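Cd80 rose in all 9 alternatives in which it was tested, and under the filter of a mean of 5 CPM it, H2-T23 and Il2rg were not tested. Of the other calls, no filter ended those of Cd47, H2-T23 and Il2rg (adjusted p = 0.0606, 0.0879 and 0.106), and Cd47 kept its call in 7 of 10, Il2rg in 5 of 9 and H2-T23 in 3 of 9. Of all tested genes 100 rose and 59 fell with no filter, and 157 and 104 with the replicate block, against 276 and 178. The members that rose numbered 2, but 1 with no filter and 1 with the filter of 5 CPM. Those that fell numbered 2, but 0 with no filter, 0 with the filter of 5 CPM and 0 with the replicate block. Leaving out 1 library gave 113 to 204 genes that rose and 78 to 136 that fell, and 1 to 2 members that rose and 0 to 1 that fell. Those fits have fewer residual degrees of freedom and take the lone library of a group to vary like the other group. The replicate numbers of the titles are not shown to pair the libraries: the differences between replicates 1 and 2 correlated at -0.095 between the groups over 13276 genes. With the block the calls of H2-T23 (adjusted p = 0.0732) and Il2rg (0.0610) ended. Signs turned only for members that had not passed. The calls of genes outside the members, such as Tnfrsf9 and Dcn, were not followed through the alternatives. Leaving out 1 library gave log2 fold changes of -0.10 to 0.074 for Raet1e, -0.13 to 0.18 for H2-M3, -5.43 to 0.32 for H2-Q4, -0.0084 to 0.37 for H2-T3, -0.13 to 0.029 for Mr1, -0.015 to 0.35 for Cd274 and -0.078 to 0.089 for Erap1, and scaling by library totals gave -0.0017 for Erap1. The cause was not tested. H2-Q4 passed without control replicate 2 (log2 fold change -5.43). Depth limits the rows near the floor: 1 CPM was 25.8 to 35.3 reads.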
